A study of Mus musculus with 6 samples.

Results

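The regulators of G protein signalling (RGS) are a family of proteins that share an RGS domain, which speeds the hydrolysis of GTP by the alpha subunits of heterotrimeric G proteins and so shortens the signal of a G protein-coupled receptor. In lymphocytes these receptors include the chemokine and sphingosine phosphate receptors, and RGS1 in particular is known for restraining chemokine-driven migration and for high expression in tissue-resident lymphocytes. RGS proteins fall into subfamilies, and the genes studied here cover the R4 subfamily (Rgs1, Rgs2, Rgs3, Rgs16 and Rgs18), the R12 subfamily (Rgs10 and Rgs14) and the RZ subfamily (Rgs19). These 8 genes were taken by symbol from the 24091 genes of the deposited count table, all 8 were found, and all 8 passed the filter on low counts.

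Messenger RNA was sequenced from group 1 innate lymphoid cells (ILC1) isolated from the liver of C57BL/6 mice. In the AML group the mice had received C1498 cells, a transplantable line of acute myeloid leukaemia from the same strain, by intravenous injection, and ILC1 were isolated at day 14. In the healthy group the mice had received no C1498 cells. Each group had 3 libraries, AML 1 to AML 3 and healthy 1 to healthy 3. The labels do not give the sorting gate, the sex of the animals or whether a library came from a single animal or a pool, so the spread behind each p-value is that between libraries and may hold technical variation.

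Total counts ran from 45135093 to 51284691 per library. Of the 8 ILC1 markers in the table, 0 were at 0 reads, and their summed level was 5325 to 6046 counts scaled to a library total of 1000000 (CPM) in AML and 5648 to 5843 CPM in healthy libraries. Of 8 markers of conventional natural killer cells Klra4 had 0 reads, and their sum was 187 to 198 CPM in AML and 137 to 213 CPM in healthy libraries. A pair of libraries stood apart within their groups. A chi-square statistic per degree of freedom over genes was 86.7 and 103 for AML 1 against the other AML libraries, compared with 28.0 between those. It was 61.1 and 62.3 for healthy 1 against the other healthy libraries, compared with 38.6 between those. The 8 neutrophil markers, none of them at 0 reads in every library, summed to 167 CPM in AML 1 and to 13.2 and 16.8 CPM in AML 2 and AML 3, with 0.583 to 15.7 CPM in healthy libraries. The 7 monocyte markers, none at 0 in every library, summed to 597 to 727 CPM in AML libraries, against 637 CPM in healthy 1 and 59.9 and 61.4 CPM in healthy 2 and healthy 3. The 9 macrophage markers, none at 0 in every library, summed to 43.2 to 121 CPM in AML and 13.07 to 18.8 CPM in healthy libraries, and 4 of them (C1qa, C1qb, C1qc and Adgre1) were above all healthy libraries in all AML libraries, while the other 5 overlapped. The 8 dendritic cell markers, none at 0 in every library, summed to 328 to 584 CPM in AML and 96.8 to 183 CPM in healthy libraries. Of them 4 (Cd74, H2-Aa, H2-Ab1 and Siglech) were above in the same way, and the other 4 overlapped. Cd74 alone held 194.4 to 358.5 CPM in AML and 51.9 to 104.9 CPM in healthy libraries. The part of these markers in the values of the Rgs genes, and of the other genes named below, was not tested.

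Rgs1 and Rgs2 made up most of the Rgs message in these cells. Together the 8 genes took 0.637%, 0.468% and 0.472% of all counts in AML 1, AML 2 and AML 3, and 0.546%, 0.774% and 0.743% in healthy 1, healthy 2 and healthy 3. Rgs1 and Rgs2 supplied between 85.6% and 92.2% of these reads in the 6 libraries. By count, Rgs1 ranked 10, 17 and 14 among all genes in the AML libraries and 18, 7 and 8 in the healthy libraries, in the order of their numbers. Rgs2 ranked 35, 103 and 120 in the AML libraries and 39, 28 and 38 in the healthy libraries.

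Levels of different genes were compared per gene length, as CPM per kilobase of gene length (RPKM). Rgs1 was the most abundant, at 1985 ± 316 RPKM in AML and 2596 ± 658 RPKM in healthy libraries (SD, n = 3 each), and Rgs2 followed at 405 ± 192 and 692 ± 79.0 RPKM. After a gap of 7.22-fold in AML and 11.4-fold in healthy libraries came Rgs19, at 56.06 ± 3.33 and 60.4 ± 3.37 RPKM, and Rgs14, at 53.04 ± 0.914 and 49.9 ± 2.93 RPKM. Rgs19 and Rgs14 overlapped in AML libraries and did not overlap in healthy libraries. Rgs3 (36.4 ± 2.72 and 33.9 ± 5.05 RPKM) and Rgs18 (34.2 ± 3.56 and 37.4 ± 2.26 RPKM) overlapped in both groups. Rgs10 lay at 6.72 ± 0.365 and 6.54 ± 1.34 RPKM and Rgs16 at 0.370 ± 0.239 and 0.355 ± 0.107 RPKM, where the AML mean of Rgs16 without AML 1 was 0.234 RPKM. The other neighbours in this order did not overlap in either group. Among the targets of these proteins, the most abundant alpha subunit per length was Gnai2, which encodes an inhibitory (Gi) subunit, at 466 ± 30.1 RPKM in AML and 464 ± 14.4 RPKM in healthy libraries. By counts Gnas was higher, at 1362 CPM in AML and 1369 CPM in healthy libraries, against 1011 and 1007 CPM for Gnai2. Per length Gnas stood at 149 and 150 RPKM, so this order depends on the gene lengths of the count table. Rgs1 exceeded Gnai2 in every library. Gnaq, of the Gq class on which RGS2 is known to act, stood at 1.62 ± 0.418 and 1.82 ± 0.209 RPKM, and the related Gna11 and Gna15 at 16.7 ± 2.51 and 14.6 ± 2.05 RPKM and at 16.0 ± 3.96 and 13.9 ± 1.59 RPKM. Gnai2, Gnaq, Gna11 and Gna15 were chosen after their values were seen.

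**Figure D1:**
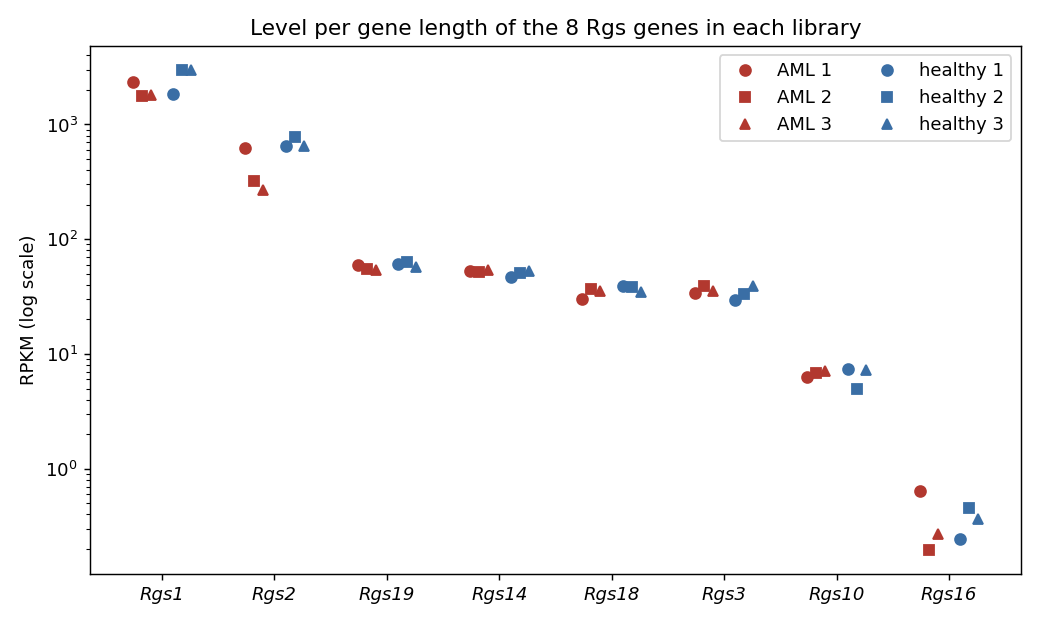
Level per gene length (RPKM, log axis) of the 8 Rgs genes in each of 3 AML (red) and 3 healthy (blue) libraries, ordered by the healthy mean. Rgs1 and Rgs2 lie above the others in all libraries, and Rgs16 lies below 1 RPKM.

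The comparison of AML with healthy libraries addresses which transcripts differ between ILC1 isolated from the liver of leukaemic and healthy mice. The sums of macrophage and dendritic cell markers given above also differed between these groups, so a change within ILC1 cannot be told apart from other cells. In AML libraries the means of Rgs2 and Rgs1 were 0.586 and 0.765 times the healthy means, and those of the other 6 genes were 0.914 to 1.07 times. Of the 8 genes 0 reached an adjusted p under 0.05 by edgeR's quasi-likelihood test, as did 0% of the 12469 genes tested. At an unadjusted p under 0.05 there was 1 Rgs gene, Rgs2, which was lower in AML. That threshold was met by 8.84% of all genes, with 3.75% lower and 5.08% higher. DESeq2, the likelihood ratio test of edgeR and limma-voom also passed 0 of the 8 genes, where they passed 1.15%, 0.802% and 0% of all genes. The log2 fold change was negative for 4 genes and positive for 4, where 48% of all genes were negative, with a median of -0.03 beside 0.01 over all genes tested. Rgs2 was the 1 gene of the 8 whose groups did not overlap, with AML below, as for 7.34% of all genes.

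**Figure D2:**
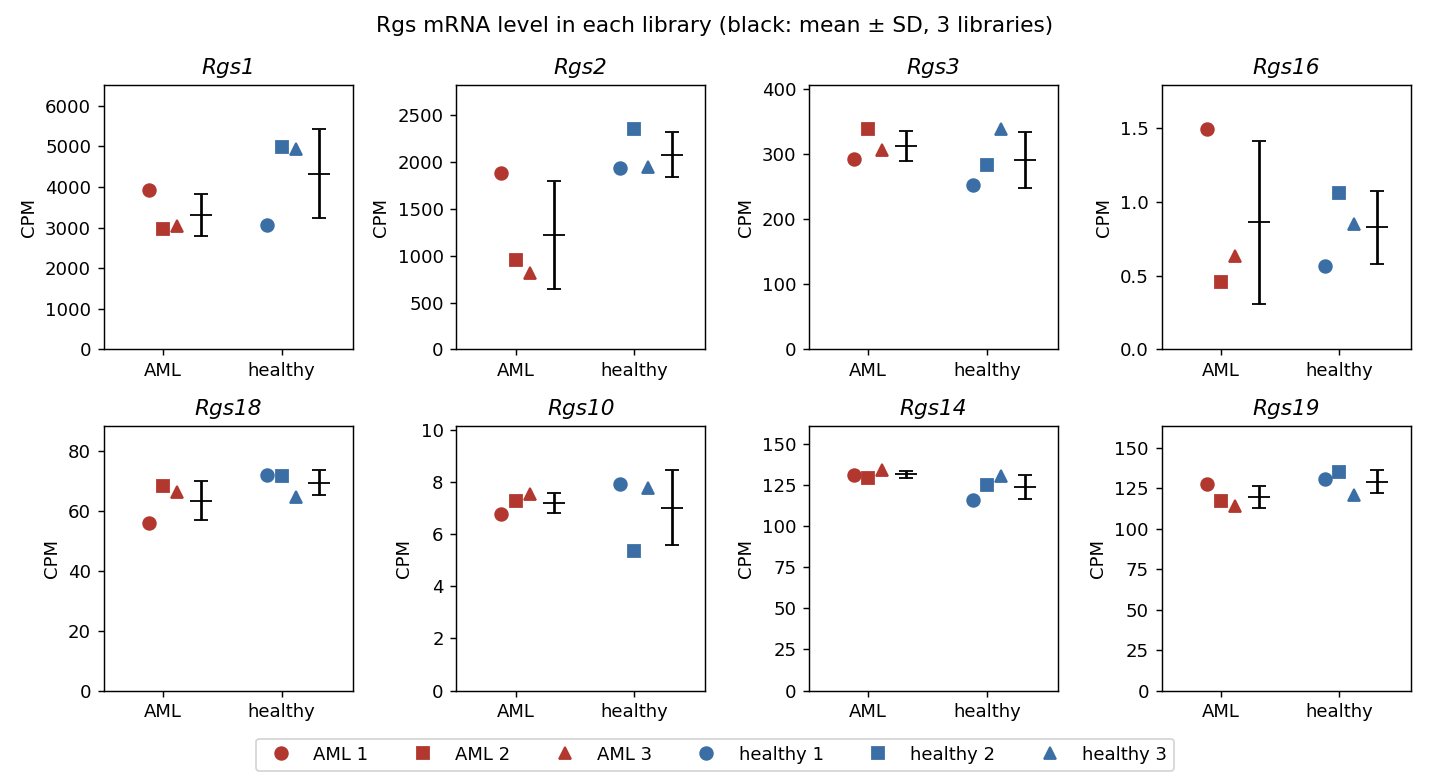
Level in CPM of each Rgs gene in AML (red, left) and healthy (blue, right) libraries; symbols give the library number and black bars the mean ± SD of 3 libraries. For Rgs2, AML 2 and AML 3 lie at 959 and 813 CPM and AML 1 at 1877 CPM, while for Rgs1 healthy 1, at 3060 CPM, lies among the AML libraries.

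Rgs2 encodes a regulator known for its action on Gq-coupled receptors and as a gene induced soon after stimulation. It lies on chromosome 1 from 143999338 to 144004149 on the minus strand (mm10), and its longest annotated coding sequence has 211 codons. It measured 1877, 959 and 813 CPM in AML 1, AML 2 and AML 3, against 1931, 2351 and 1950 CPM in healthy 1, healthy 2 and healthy 3. All AML libraries lay below all healthy libraries, but AML 1 lay close to the lowest healthy library and far above the other AML libraries. The spread within AML, a 2.31-fold range, exceeded that within the healthy group, 1.22-fold. In bulk libraries such as these, fewer cells that express a gene and less of its RNA per cell cannot be told apart. The log2 fold change was -0.77 ± 0.29 (SE), with a 95% interval from -1.44 to -0.10 before adjustment and an adjusted p of 0.525 in edgeR's quasi-likelihood test.

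That result rested on AML 1. Without AML 1 the log2 fold change of Rgs2 was -1.23 ± 0.12 (SE), with an adjusted p of 0.00682 in the same test, and without both AML 1 and healthy 1 it was -1.28 ± 0.12, with an adjusted p of 0.000915. Of all genes tested 1.15% passed without AML 1 and 3.54% without both. AML 1 was the highest AML library for Rgs2, so leaving it out widens the difference by itself. Leaving out each of the other libraries gave log2 fold changes from -0.83 to -0.55 that did not pass. Over all alternatives tried the adjusted p of Rgs2 ranged from 0.000915 to 0.818. AML 1 is also the library with the high neutrophil markers given above, whose part in its Rgs2 level was not tested. In the authors' deposited table Rgs2 had a log2 fold change of -0.77, a p of 0.0013 and an adjusted p of 0.113, and stood at place 112 of 9769 genes by p.

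**Figure D3:**
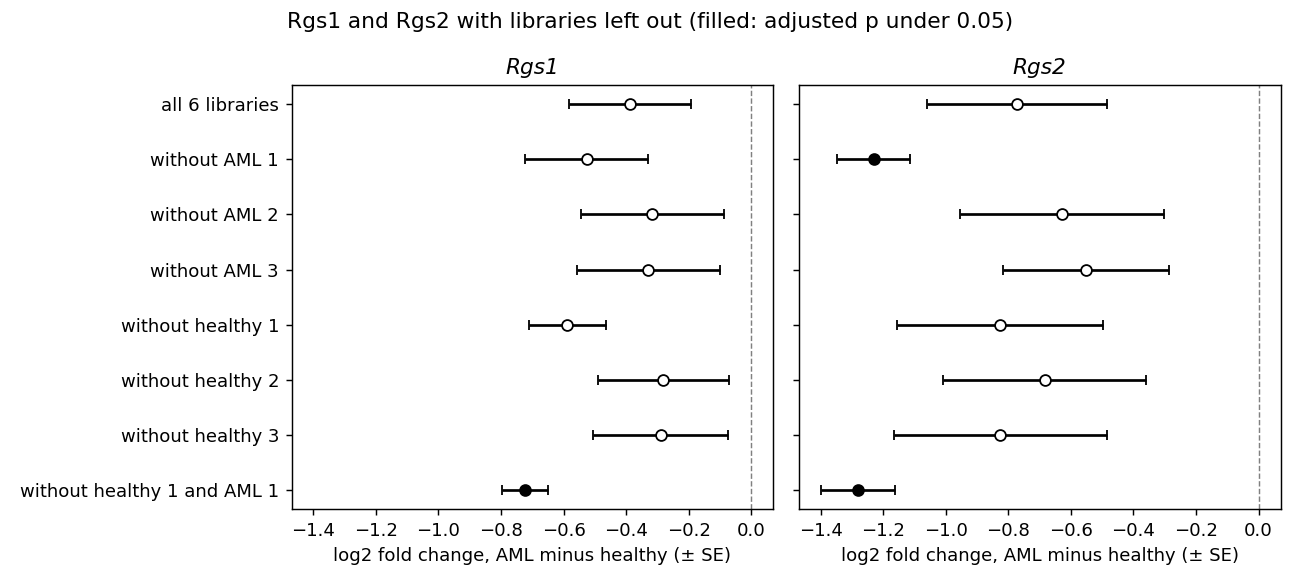
Log2 fold change (AML minus healthy, ± SE) of Rgs1 (left) and Rgs2 (right) with all 6 libraries and with libraries left out; filled points have an adjusted p under 0.05. Rgs2 passes without AML 1, at -1.23, and both genes pass without AML 1 and healthy 1, at -0.72 and -1.28.

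The genes whose pattern over the 6 libraries was closest to that of Rgs2, among 8344 genes with a mean of at least 10 CPM, were Zfp703, Nrarp and Hilpda. Zfp703 encodes a zinc finger regulator of transcription, Nrarp a feedback inhibitor of Notch signalling and Hilpda a lipid droplet protein. The likeness was the root mean square difference of centred log2 CPM over 6 libraries, which was 0.044, 0.051 and 0.071, beside a median of 0.582 over all genes compared. Nrarp measured 34.5, 19.3 and 15.1 CPM in AML 1, AML 2 and AML 3, against 34.7, 44.6 and 35.9 CPM in healthy 1, healthy 2 and healthy 3. As for Rgs2, AML 1 lay beside the healthy libraries, which follows from choosing Nrarp by its likeness. The differences named are the smallest of all genes compared, so the median cannot show whether they are unusual.

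The promoters of Rgs2 and Nrarp are shown because Nrarp was picked for its likeness to Rgs2 over these libraries. The sequences are those of RefSeq (GRCm38.p6, which is mm10), from 250 bases before to 50 bases after the start. They span chr1:144004100-144004399 on the minus strand for Rgs2 and chr2:25180508-25180807 on the plus strand for Nrarp. Capitals mark matches on either strand to the CCAAT box, spelled as its name, and to TGACG, the half-site of the cAMP response element (CRE).
Rgs2: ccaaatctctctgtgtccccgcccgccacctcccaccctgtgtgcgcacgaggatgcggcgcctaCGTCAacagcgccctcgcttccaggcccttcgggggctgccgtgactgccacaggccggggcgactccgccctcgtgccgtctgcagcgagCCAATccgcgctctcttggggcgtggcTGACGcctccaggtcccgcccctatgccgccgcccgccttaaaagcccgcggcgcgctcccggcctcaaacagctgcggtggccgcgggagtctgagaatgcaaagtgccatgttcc
Nrarp: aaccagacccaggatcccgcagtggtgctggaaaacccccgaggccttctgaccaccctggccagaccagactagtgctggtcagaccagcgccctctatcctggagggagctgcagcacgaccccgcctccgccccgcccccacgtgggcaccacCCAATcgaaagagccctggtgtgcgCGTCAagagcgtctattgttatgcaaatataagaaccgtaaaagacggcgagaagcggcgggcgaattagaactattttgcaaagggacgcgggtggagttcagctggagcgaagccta
The windows of Rgs2 and Nrarp both held a CCAAT box that began 94 bases before the start, and a CRE half-site that began 67 bases before it in Rgs2 and 69 bases before it in Nrarp, on opposite strands. Rgs2 held another half-site, 185 bases before the start. Of 32851 windows of this length, 37.4% held a CCAAT box and 20.8% a CRE half-site. Hilpda had 2 windows, each with a CRE half-site and an AP-1 match and neither with a CCAAT box, so the layout shared by Rgs2 and Nrarp was not found there. No window was available for Zfp703, the gene closest to Rgs2. Cyp51, named below for its likeness to Rgs16, held a CRE half-site 108 bases and a CCAAT box 29 bases before the start. Rgs16 held a CCAAT box 68 bases before it. How many of all windows hold both motifs was not counted. The whole CRE (TGACGTCA, which contains the half-site), an AP-1 site (TGANTCA) and a TATA box (TATAAA) had no match in the windows of Rgs2 and Nrarp, and were held by 1.79%, 7.81% and 13.6% of all windows. Of the 8 Rgs genes 5 had such windows, 8 in all with alternative starts. The CRE half-site was matched in the Rgs2 window and in none of those of Rgs3, Rgs10, Rgs16 and Rgs19. These matches describe the letters of the windows and were not tested for binding.

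Rgs1 encodes a regulator of Gi and Gq signals that is known to dampen chemokine responses of B and T lymphocytes. It lies on chromosome 1 from 144244669 to 144249104, also on the minus strand, with a longest annotated coding sequence of 209 codons. It measured 3915, 2973 and 3039 CPM in AML 1, AML 2 and AML 3, against 3060, 4979 and 4943 CPM in healthy 1, healthy 2 and healthy 3. The groups overlapped, since healthy 1 lay among the AML libraries and AML 1 above it. The log2 fold change was -0.39 ± 0.19 (SE), with a 95% interval from -0.84 to 0.06 and an adjusted p of 0.587 in edgeR's quasi-likelihood test.

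Without healthy 1 the log2 fold change of Rgs1 was -0.59 ± 0.12 (adjusted p 0.142, edgeR), and without AML 1 it was -0.53 ± 0.20 (adjusted p 0.267). Without both it was -0.72 ± 0.07 (adjusted p 0.00132, edgeR), where 3.54% of all genes passed. Healthy 1 was the lowest healthy library for Rgs1 and AML 1 the highest AML library, so leaving both out widens the difference by itself. Over all alternatives the adjusted p of Rgs1 lay between 0.00132 and 0.861. Healthy 1 is the healthy library with the high monocyte markers, and the part of these in its Rgs1 level was not tested. In the authors' deposited table Rgs1 had a log2 fold change of -0.38, a p of 0.0358 and an adjusted p of 0.555. The genes closest to Rgs1 in pattern were the small nucleolar RNA host Snhg5, at a root mean square difference of 0.106, Znrf3, a ubiquitin ligase that acts on Wnt receptors, at 0.124, and the corepressor gene Rcor3, at 0.126, beside a median of 0.340.

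Rgs2 and Rgs1 did not keep a fixed ratio. There were 47.9, 32.3 and 26.8 Rgs2 reads per 100 Rgs1 reads in AML 1, AML 2 and AML 3, against 63.1, 47.2 and 39.5 in healthy 1, healthy 2 and healthy 3. In each group library 1 had the highest ratio and library 3 the lowest, and at each number the AML ratio was the lower. The labels do not say whether libraries of equal number were paired, so the test below left the numbers out. The groups overlapped in this ratio, whose mean on the log2 scale was -1.53 in AML and -1.03 in healthy libraries, a difference of -0.50. An exact two-sided permutation test over the libraries gave p = 0.3 (n = 3 each), and its smallest possible p is 0.1, so this design cannot reach 0.05.

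Rgs2 and Rgs1 belong to a run of R4 genes on chromosome 1 that differ widely in level. The 776.1 kb from Rgs2 to the end of Rgs18 hold 5 genes of the count table, all of them Rgs genes on the minus strand, in the order Rgs2, Rgs13, Rgs1, Rgs21 and Rgs18. Their starts lie 0, 173.2, 245, 563.5 and 771.3 kb from that of Rgs2. Rgs13, known from germinal centre B cells, had 1 read in AML 3 and 0 in the other libraries. Rgs21, known from taste cells, had 0 reads in all 6 libraries, where 3 reads as the limit of a 0 correspond to 0.0574 to 0.0641 CPM.

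Rgs18, known from platelets and other haematopoietic cells, closes this run (144752841 to 144775421, 235 codons). It measured 55.8, 68.1 and 66.1 CPM in AML 1, AML 2 and AML 3, against 71.8, 71.6 and 64.5 CPM in healthy 1, healthy 2 and healthy 3. The groups overlapped, and the log2 fold change was -0.13 ± 0.10 (SE), with a 95% interval from -0.36 to 0.10 and an adjusted p of 0.692 (edgeR). The 9 markers of platelets and megakaryocytes, none of them at 0 in every library, summed to 0.938 to 2.73 CPM in AML and 0.914 to 1.44 CPM in healthy libraries. Rgs18 was above the sum of these markers in every library. Such a comparison cannot tell which cells its reads came from, and this was not tested.

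Rgs3, which acts on Gi and Gq and exists in short and long forms, lies on chromosome 4 from 62559847 to 62703019 on the plus strand. It has 8 protein-coding transcripts in GENCODE M21, with coding sequences from 108 to 966 codons, and the table gives it a length of 8.597 kb, so short forms would have a higher level per length than that printed here. It measured 293, 339 and 306 CPM in AML 1, AML 2 and AML 3, against 252, 284 and 338 CPM in healthy 1, healthy 2 and healthy 3. The groups overlapped over most of their range, and the log2 fold change was 0.10 ± 0.12 (SE), with a 95% interval from -0.17 to 0.37 and an adjusted p of 0.784 (edgeR). An antisense gene is annotated across 6036 bases of Rgs3, whose reads cannot be told apart in libraries without strand.

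Rgs16, a gene known to be induced when T cells are activated, was barely detected in these cells. It lies on chromosome 1 from 153740353 to 153745468 on the plus strand, with 201 codons. It had 70, 24 and 30 reads in AML 1, AML 2 and AML 3, against 28, 53 and 41 reads in healthy 1, healthy 2 and healthy 3, or 0.459 to 1.496 CPM in AML and 0.567 to 1.07 CPM in healthy libraries. AML 1 was the highest library, and the range of the AML libraries included all healthy ones. The log2 fold change was 0.06 ± 0.58 (SE), with a 95% interval from -1.28 to 1.39 and an adjusted p of 0.980 (edgeR), so changes of 2-fold in either direction lay within the interval. Without AML 1 the log2 fold change was -0.60, the opposite direction, with an adjusted p of 0.693. An antisense gene overlaps 1917 bases of Rgs16 in the annotation. Nanos1, an RNA-binding protein, Socs3, a suppressor of cytokine signals, and Cyp51, an enzyme of cholesterol synthesis, were closest in pattern, at root mean square differences of 0.238, 0.239 and 0.246 beside a median of 0.582. Socs3 measured 190, 67.1 and 64.8 CPM in AML 1, AML 2 and AML 3, against 102, 142 and 114 CPM in healthy 1, healthy 2 and healthy 3. It too was highest in AML 1, which follows from choosing it by likeness. With so few reads of Rgs16, counting error also enters these differences.

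The R12 genes differed in level from each other but little between groups. Rgs14, which besides its RGS domain has Ras-binding and GoLoco domains, lies on chromosome 13 from 55369732 to 55384687 on the plus strand and has 547 codons in 15 exons. It measured 131, 129 and 134 CPM in AML 1, AML 2 and AML 3, against 116, 125 and 130.1 CPM in healthy 1, healthy 2 and healthy 3. The groups overlapped, and the log2 fold change was 0.09 ± 0.07 (SE), with a 95% interval from -0.08 to 0.25 and an adjusted p of 0.699 (edgeR). Rgs10, a small regulator selective for Gi and known from microglia and macrophages, lies on chromosome 7 from 128373625 to 128418172 on the minus strand and has up to 181 codons. It measured 6.78, 7.27 and 7.55 CPM in AML 1, AML 2 and AML 3, against 7.90, 5.35 and 7.77 CPM in healthy 1, healthy 2 and healthy 3. A processed transcript on the same strand (Gm15503) overlaps 3374 bases of Rgs10 in the annotation, so reads there are of uncertain origin. All AML libraries of Rgs10 lay within the healthy range, and the log2 fold change was 0.04 ± 0.22 (SE), with a 95% interval from -0.47 to 0.55 and an adjusted p of 0.964 (edgeR). Without healthy 2 it was -0.13, the opposite direction, with an adjusted p of 0.931.

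Rgs19, also named GAIP, binds Gi subunits and is known from the Golgi and clathrin-coated membranes. It lies on chromosome 2 from 181688419 to 181693977 on the minus strand, with up to 243 codons. It measured 128, 117 and 114 CPM in AML 1, AML 2 and AML 3, against 131, 135 and 121 CPM in healthy 1, healthy 2 and healthy 3. The groups overlapped, and the log2 fold change was -0.11 ± 0.08 (SE), with a 95% interval from -0.29 to 0.07 and an adjusted p of 0.679 (edgeR).

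**Figure D4:**
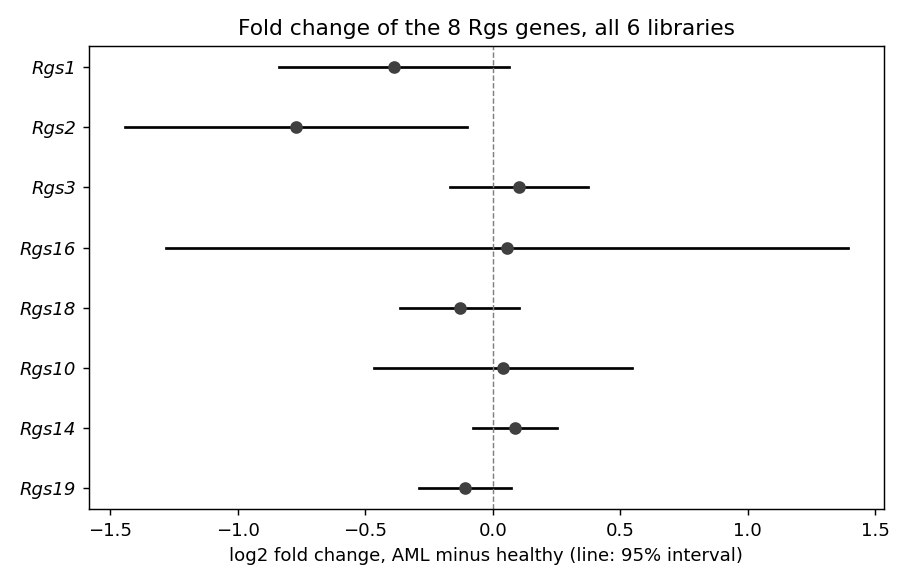
Log2 fold change (AML minus healthy) of the 8 Rgs genes with all 6 libraries; points are estimates of edgeR's quasi-likelihood fit and lines their 95% intervals, which are not adjusted for the number of genes. The interval of Rgs2, from -1.44 to -0.10, lies below 0 and those of the other 7 genes include 0.

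Rgs14, Rgs18, Rgs19, Rgs3 and Rgs10 were measured with intervals narrow enough to leave out changes of 1.5-fold in either direction at the unadjusted 95% level. In the authors' deposited table, which does not list Rgs16, none of the other 7 genes passed, and the smallest adjusted p after those of Rgs2 and Rgs1 was 0.972, for Rgs18. The remaining 13 RGS genes of the family contributed little. Rgs4, Rgs5, Rgs6, Rgs7, Rgs8 and Rgs21 had 0 reads in all 6 libraries. Only 3 were tested, namely Rgs9, Rgs11 and Rgs12, and 0 passed over all genes in edgeR's quasi-likelihood test. At an unadjusted p under 0.05 there were also 0 of these 3, where 8.84% of all genes met that threshold. Rgs12, the highest of them, measured 12.6 ± 2.34 CPM in AML and 11.01 ± 1.39 CPM in healthy libraries (SD, n = 3 each), and Rgs11 measured 4.53 ± 1.67 and 6.01 ± 0.317 CPM.

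The partners of RGS proteins in the pathway were counted over 9 lists in the same edgeR quasi-likelihood test, and 0 genes passed in any list. Of all genes tested 8.84% were past an unadjusted p of 0.05, so a 0 does not set a short list apart from them. A negative fold change was found for 48% of all genes. Of 10 tested alpha subunits 0 were past that p, 6 had a negative and 4 a positive fold change. Their median log2 fold change was -0.04. The most counted was Gnas, of the stimulatory (Gs) class, at 1362 ± 41.7 CPM in AML and 1369 ± 71.6 CPM in healthy libraries (SD, n = 3 each). Gnal and Gna12, with the smallest p, had log2 fold changes of 0.20 ± 0.10 (SE) and -0.18 ± 0.12. Of 11 beta and gamma subunits 0 were past that p, with a median of -0.03. Gnb1, the most counted, had a log2 fold change of -0.10 ± 0.08, and Gng2 and Gng10 had -0.22 ± 0.10 and -0.17 ± 0.08. Of 7 receptor kinases and arrestins, which switch off receptors, 0 were past that p, with a median of -0.06, and Grk2 and Arrb1 had log2 fold changes of -0.11 ± 0.07 and 0.18 ± 0.10. Of 5 modulators that act on G proteins without a receptor 0 were past it, with a median of 0.04. Among them Gpsm1 and Gpsm2 had -0.20 ± 0.10 and 0.88 ± 0.60, and Ric8a, a chaperone of alpha subunits, had -0.06 ± 0.09.

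Receptors and effectors held the smallest p-values of these lists. Of 20 tested Gi-coupled chemoattractant and lipid receptors 3 were higher and 1 lower in AML at an unadjusted p under 0.05. Of all genes tested 5.08% were higher and 3.75% lower at that p. The median log2 fold change was 0.40, beside 0.01 over all genes tested. The largest fold changes of the list, of Ccr9, Fpr1, Ccr7 and Fpr2, were of genes with AML means of only 0.944 to 1.47 CPM. Ccr2, which encodes a receptor for monocyte chemoattractant proteins, measured 293, 274 and 294 CPM in AML 1, AML 2 and AML 3, against 195, 212 and 189 CPM in healthy 1, healthy 2 and healthy 3. Its groups did not overlap, as for 1937 of the 12469 genes tested. Its log2 fold change was 0.53 ± 0.07 (SE), with an adjusted p of 0.323 by the quasi-likelihood test and of 1.32e-07 by DESeq2. Ccr9, a homing receptor, stood at 1.36 ± 0.290 CPM in AML and 0.0812 ± 0.105 CPM in healthy libraries. The third higher gene was the formyl peptide receptor Fpr1, at 1.07 to 2.10 CPM in AML and 0 to 0.442 CPM in healthy libraries. The macrophage and dendritic cell markers given above also summed higher in AML libraries, and their part in these receptor values was not tested. Cxcr6, the residency receptor of liver ILC1 and the most counted of the list, measured 743 ± 68.01 CPM in AML and 926 ± 94.9 CPM in healthy libraries, a log2 fold change of -0.32 ± 0.10 with an adjusted p of 0.478 (edgeR). Of 7 adenylyl cyclases and phospholipases C beta 2 were higher and 1 lower at an unadjusted p under 0.05, beside the same 5.08% and 3.75% of all genes. Adcy3, an adenylyl cyclase, measured 44.9 ± 3.97 CPM in AML and 60.8 ± 3.53 CPM in healthy libraries, a log2 fold change of -0.44 ± 0.10, and Plcb4, a phospholipase driven by Gq, measured 8.68 ± 2.27 and 4.03 ± 0.320 CPM, a log2 fold change of 1.11 ± 0.25. The other higher gene was Adcy4, at 0.299 to 0.715 CPM in AML and 0 to 0.0405 CPM in healthy libraries. Adcy7, the most counted, had a log2 fold change of 0.09 ± 0.10. Ccr9, Fpr1 and Adcy4 were low in healthy libraries and passed the filter on low counts only through the AML libraries. They could thus hardly have been called lower.

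DESeq2 passed 4 genes of these lists, namely Ccr2, Ccr9 and Plcb4 as higher and Adcy3 as lower, where it passed 1.15% of all genes. The likelihood ratio test passed 4, namely Ccr2, Ccr9 and Adcy4 as higher and Adcy3 as lower, where it passed 0.802% of all genes. Among these, Ccr9 and Adcy4 had passed the filter on low counts only through the AML libraries. Of 7 Gs-coupled receptors 1, Adrb1, was lower at an unadjusted p under 0.05, where 3.75% of all genes were. Its log2 fold change was -0.59 ± 0.23 (SE). Adora2b had 1.24 ± 0.70 and Ptger4, the most counted, -0.15 ± 0.10. Of 8 cAMP phosphodiesterases 0 were past that p, where 8.84% of all genes were. Pde3b and Pde7a had log2 fold changes of -0.22 ± 0.09 and 0.12 ± 0.09. Of 8 genes of protein kinase A and the CREB family 1 was lower, beside the same 3.75% of all genes. This was the catalytic subunit Prkacb, with -0.17 ± 0.07, while Creb1 had 0.15 ± 0.09 and the regulatory subunit Prkar1a -0.10 ± 0.09.

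Among the partners, Crem and Gna13 were among several genes that also differed widely between AML 1 and the other AML libraries. Others were Cxcr4, Grk3 and Gpr183. Gpr183 measured 91.7, 13.15 and 20.4 CPM in AML 1, AML 2 and AML 3, against 22.5, 43.2 and 33.2 CPM in healthy 1, healthy 2 and healthy 3. Without AML 1 the quasi-likelihood test passed 3 genes of these lists, namely Ccr2 as higher and Crem and Gna13 as lower, where it passed 1.15% of all genes. Crem, a cAMP-responsive transcription factor, measured 80.5, 20.5 and 20.2 CPM in AML 1, AML 2 and AML 3, against 57.6, 56.3 and 47.2 CPM in healthy 1, healthy 2 and healthy 3. Gna13, which encodes a G protein alpha subunit, measured 253, 136 and 127 CPM in AML 1, AML 2 and AML 3, against 209, 245 and 204 CPM in healthy 1, healthy 2 and healthy 3. Both were higher in AML 1 than in every healthy library, unlike Rgs2, and lower in the other AML libraries than in every healthy library. Their log2 fold changes were -0.41 ± 0.51 (SE) and -0.35 ± 0.25 with all libraries. Without AML 1 they were -1.40 ± 0.12 and -0.74 ± 0.10, with adjusted p-values of 0.00577 and 0.0228 (edgeR). AML 1 was the highest AML library for both genes, so leaving it out lowers their AML means by itself. Without healthy 1 the test passed 2 genes of the lists, Ccr9 and Cx3cr1, both higher, and 0.697% of all genes. Here too, Ccr9 passed the filter on low counts only through the AML libraries. Cx3cr1, a receptor also found on monocytes, measured 11.7, 9.36 and 10.5 CPM in AML 1, AML 2 and AML 3, against 12.07, 2.15 and 2.20 CPM in healthy 1, healthy 2 and healthy 3. Healthy 1 was the highest healthy library for both Ccr9 and Cx3cr1, so leaving it out widens their differences by itself. Healthy 1 is also the healthy library with the high monocyte markers, whose part in this result was not tested. Crem, Gna13, Gpr183, Cxcr4, Grk3, Cx3cr1, Fpr1 and Adcy4 were chosen after their values were seen.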

How the data were processed

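RNA was extracted from liver ILC1 of 3 AML and 3 healthy samples, amplified to cDNA from poly(A) RNA and sequenced as single reads without strand information, per the labels' protocols. The authors deposited raw read counts per gene for 24091 symbols, with a gene length in kilobases (another unit used here). A second deposited table, with the authors' comparison, holds log2 fold changes, likelihood ratio scores and p-values for 9769 genes, beside a value per library. These values, which the authors deposited in a table named for counts, were RPKM, as they equalled 1.01 times the RPKM of the counts at the median. They were used in no test. Builds mm10 and hg19 and the tools edgeR 3.28.1, HTSeq 0.6.0, STAR 2.6.0 and bcl2fastq 2.18.0.12 are named, with no role, per the submitters' processing notes. How HTSeq was set is not given in the sources used here. Of the symbols 23349 occur in RefSeq GRCm38.p6, 99.9% of these on the same chromosome, so positions are taken as mm10.

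Groups came from the titles. The main test was glmQLFTest of edgeR 4.0.16, a quasi-likelihood test, in R 4.3.3, with TMM normalization, filterByExpr at a minimum count of 10, and the group as the only term. Tests were two-sided, with Benjamini-Hochberg adjustment over 12469 genes and a threshold of 0.05. Standard errors follow from the fold change and its F statistic. CPM and RPKM use TMM-scaled totals. Limits and ranks from counts cover counting error only. Alternatives used DESeq2 1.42.0, limma 3.58.1 (voom), other scalings and filters, the replicate number as a block and left-out libraries. The fit was tested on simulated data. No pair of libraries of the same group was alike within sampling noise. The 8 genes, the lists and the tests were chosen with earlier results of these data known. Besides the 8 genes, the text names from each list those past the threshold, or otherwise the 2 with the smallest p and the most counted, and the 3 genes most like each of the 3 Rgs genes with the widest range. Other names were chosen after their values were seen.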

Additional observations from a re-analysis of the deposited data

How the results depend on the processing

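With 17 alternatives, 16 for Rgs16, which the stricter filter of a mean of 5 CPM left out, Rgs1, Rgs2, Rgs3, Rgs14, Rgs18 and Rgs19 kept the direction of their log2 fold change. Rgs2 passed without AML 1 (-1.23) and without healthy 1 and AML 1 (-1.28), and Rgs1 without both (-0.72). Left-out libraries took Rgs2 from -1.23 to -0.55 and Rgs1 from -0.59 to -0.28. Rgs10 turned negative without healthy 2, and left-out libraries took it from -0.13 to 0.13. Rgs16 turned negative by limma-voom (-0.10), with the replicate block (-0.094) and without healthy 1 and AML 1 (-0.81), and left-out libraries took it from -0.60 to 0.36. The number of Rgs genes past the threshold was 0, with 0 to 1 as each library was left out and 2 without healthy 1 and AML 1. Over the pathway lists it was 0, against 4 by DESeq2, 4 by the likelihood ratio test, 0 to 3 with left-out libraries and 6 without healthy 1 and AML 1, namely Ccr2, Ccr9 and Cx3cr1 as higher and Crem, Gna13 and Gpr183 as lower. Over all genes it was 0, against 143 by DESeq2 (104 higher), 100 by the likelihood ratio test (76 higher), 2 without TMM factors, 1 with upper quartile factors, 2 without a filter, 1 with the stricter filter, 0 to 147 with left-out libraries (147 without AML 1, 89 without healthy 1) and 444 without healthy 1 and AML 1. The cause of these shifts was not tested. Levels per length moved by less than 1 SD except for Rgs14 in AML, which was 54.2 RPKM without TMM factors.

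The labels do not say whether libraries of equal number share anything beyond the number. The deviations of such libraries from their group means correlated at 0.122, -0.0391 and 0.131 for numbers 1, 2 and 3. Between libraries of unlike number these correlations ran from -0.173 to 0.0551. With the replicate block 0 genes passed, 0 of the Rgs genes among them, and Rgs2 had -0.87 and Rgs1 -0.37. At this depth the reads of Rgs16, 24 to 70 per library, limit its precision.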
